A study of Mus musculus with 2 samples.

Results

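Gamma-delta T cells were picked out of colon tumours of AOM/DSS-treated mice, a colitis-associated cancer model made with the carcinogen azoxymethane and the irritant dextran sulfate sodium. Each tumour suspension had been sequenced as 1 single-cell library with the 10x Genomics 3′ kit (v3). Of the 2 libraries, 1 came from Gsk3b IEC+/+ mice and 1 from Gsk3b IEC-/- mice, which lack the kinase gene Gsk3b in intestinal epithelial cells, and both groups had the same AOM/DSS induction. The number and age of the mice behind each library, the deleted stretch of Gsk3b and the driver of the deletion were not given in the sources used here. With 1 library per genotype, no difference between the libraries has a replicate check, and no p-value is given for any.

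A barcode was taken as a gamma-delta T cell when it passed 1000 UMIs (unique molecular identifiers, that is counted RNA molecules), 200 genes and at most 25% mitochondrial UMIs, and met 3 further conditions. It held 2 or more UMIs of Cd3d, Cd3e and Cd3g together, the shared chains of the T cell receptor complex. It held 2 or more UMIs, making up at least 0.05% of its total, of Trdc, Tcrg-C1 and Cd163l1 together. It held none of Foxp3 and Cd8b1, which mark regulatory and CD8 alpha-beta T cells. This left 195 of 22104 barcodes within the limits, and 195 of 1662 with 2 or more Cd3 UMIs: 123 cells in the IEC+/+ library and 72 in the IEC-/- library. The cells were thus chosen by their UMIs of the genes named in this rule, whose values are given below as a description.

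Gamma-delta T cells carry a receptor of a gamma and a delta chain in place of the alpha and beta chains of most T cells, and many of them respond within hours through cytokine receptors, without prior priming. In the mouse, a subset leaves the thymus already set to secrete interleukin 17A; it depends on Maf, expresses Zbtb16 and Blk, and is triggered by IL-1 and IL-23. In the gut, interleukin 17A from such cells recruits neutrophils and acts on the epithelium, whereas other gamma-delta T cells sit within the epithelial layer and carry a cytotoxic programme.

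The libraries held 164574326 (IEC+/+) and 156641780 (IEC-/-) UMIs over 32285 genes, and 10638 and 11466 barcodes were within the limits. Between them the libraries shared 37 of these barcode sequences, and none of the 195 cells was among them. The gamma-delta T cells held a median of 4181 and 4572.5 UMIs, 2004 and 2032.5 genes and 2.14% and 2.22% mitochondrial UMIs. Their UMIs summed to 648353 and 395299. Levels below are UMIs per 1000000 within these sums (CPM), and all intervals are exact 95% intervals that cover counting error only, not differences between cells or mice. Immunoglobulin UMIs in the cells put the share of free RNA at 12.8% and 13.2%, and the profile of nearly empty droplets (under 100 UMIs) is quoted beside some genes. Free RNA at that share would bring only a small part of the empty-droplet level into a cell.

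Gamma-delta T cells made up 1.16% (interval 0.962 to 1.38) of barcodes in the IEC+/+ library and 0.628% (0.492 to 0.790) in the IEC-/- library, a log2 ratio of -0.88 (-1.32 to -0.45). Of barcodes with 2 or more Cd3 UMIs they were 14.0% (11.8 to 16.5) and 9.18% (7.26 to 11.4), a log2 ratio of -0.61 (-1.05 to -0.18). The share was lower in the IEC-/- library on both denominators, beyond counting error. Thinning every barcode to 1000 UMIs before the selection gave -1.01 and -0.54, the latter with an interval (-1.16 to 0.06) that held 0.

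The 3 genes of the rule are given first, as a description, since the cells were chosen by them. Trdc, the delta constant gene (mm10 chromosome 14, 54142851 to 54148868), stood at 2914 and 2256 CPM and was found in 166 of the 195 cells. Tcrg-C1, a gamma constant gene (chromosome 13, 19214103 to 19217024), stood at 531 and 483 CPM and was found in 162 cells. Cd163l1, which encodes the scavenger receptor SCART1 of gamma-delta T cells, stood at 631 and 589 CPM and was found in 124 cells. All 3 genes were found together in 108 cells, and 194 cells held Trdc or Tcrg-C1. The median cell carried 16 UMIs of the 3 genes, or 0.350% of its total, well above the threshold of 2 UMIs.

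Near that threshold the cells of both libraries were as follows. The 13 IEC+/+ cells with exactly 2 such UMIs had 324 CPM of Trac, the alpha constant gene, 5149 CPM of Il17a and 189 CPM of Blk, and the 4 IEC-/- cells had 543, 204 and 67.9 CPM. The 56 and 33 T cells just outside, with 1 such UMI, had 92.9 and 109 CPM of Trac, 434 and 348 CPM of Il17a and 11.8 and 46.0 CPM of Blk.

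Further gamma and delta genes, not named in the rule but tied to it by sequence or transcript, are given as a description. Tcrg-C4 stood at 196 CPM (163 to 233) and 169 CPM (131 to 215), Tcrg-C2 at 123 CPM (97.8 to 154) and 182 CPM (143 to 229), and their levels in empty droplets were between 0.653 and 1.56 CPM. Some of the gamma constant genes are near-identical copies, so the counting may have divided reads among those. Trdv4, a delta variable segment (chromosome 14, 54074905 to 54075515), stood at 126 CPM in both libraries and was found in 39 and 22 cells. Trgv2 was found at 41.6 and 45.5 CPM. None of the 4 differed by 1.5-fold between the libraries.

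Alpha-beta chain genes were found as well. At least 1 UMI of Trac, Trbc1 or Trbc2 was present in 185 of the 195 cells, and transcripts of the beta constant genes are known from gamma-delta T cells. Trac itself was found in 57 cells (36 and 21), of which 21 held no Trdc. Its level was 89.5 CPM (67.9 to 116) and 98.7 CPM (70.2 to 135), against 17.4 and 15.5 CPM in empty droplets and 431 and 236 CPM in the alpha-beta T cells with Il17a described below. The 138 cells without Trac, 87 and 51, are therefore given beside the results that follow. This division was chosen after seeing the data.

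The markers of the interleukin 17 programme were present in both libraries. Zbtb16, which encodes the innate-like T cell factor PLZF, stood at 250 CPM (213 to 291) and 369 CPM (312 to 434), in 67 and 42 cells. Blk, a Src-family kinase gene of interleukin-17-producing gamma-delta T cells, stood at 250 CPM (213 to 291) and 238 CPM (192 to 291), in 70 and 41 cells. Neither gene passed 1.5-fold between the libraries (log2 ratios 0.56 and -0.07). Their levels in empty droplets were 2.79 and 2.50 CPM for Zbtb16 and 2.23 and 11.4 CPM for Blk.

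Il17a (chromosome 1, 20730905 to 20734496) was found in 85 of 123 cells (69.1%, interval 60.1 to 77.1) and 45 of 72 cells (62.5%, 50.3 to 73.6). Thinned to 1000 UMIs per cell the shares were 52.0% and 40.3%. In Epcam-positive epithelial cells, which do not express it, the shares were 6.13% and 1.58% at median depths of 21398 and 19988 UMIs, and 0.401% and 0.100% after thinning. The detection of Il17a was thus far above the level of cells that lack it.

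**Figure D1:**
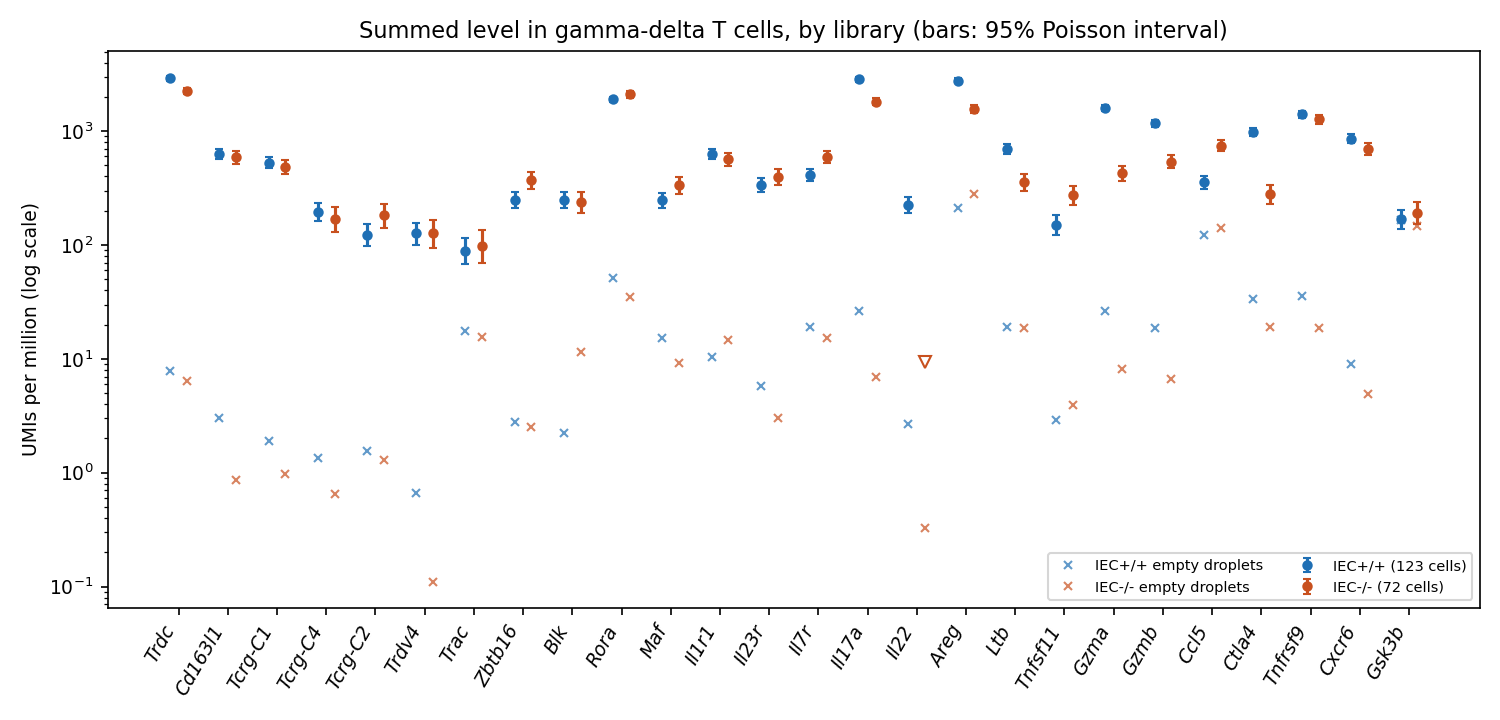
Level of receptor, identity, cytokine and effector genes summed over the gamma-delta T cells of each library, in CPM on a log scale, with exact 95% Poisson intervals; crosses are the level in nearly empty droplets and the open triangle is the exact upper limit for a count of 0. Il17a, Areg, Ltb, Gzma, Gzmb and Ctla4 sit lower in the IEC-/- library, Ccl5 and Tnfsf11 sit higher, and Gsk3b lies close to its empty-droplet level.

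Between the libraries, 1621 of 6569 genes with 20 or more UMIs in these cells lay past 1.5-fold (24.7%), 895 higher (13.6%) and 726 lower (11.1%) in the IEC-/- library. The median log2 ratio over all 6569 was 0.04, and 3515 ratios were positive. Median-of-ratios scaling shifted every ratio down by 0.089 and turned the split to 691 higher and 904 lower. Cytokine genes were lower more often than this background. The type 17 list and the list of cytokines and ligands that follow overlap, and Il17a and Areg are in both. Of the 11 measured genes of a list of type 17 cytokines and their helpers, 7 were lower and none was higher, with a median of -0.65. Of 20 measured cytokines and ligands, 10 were lower and 5 higher, with a median of -0.53. Of 23 measured identity genes of interleukin-17-producing gamma-delta T cells, 1 was lower and 3 were higher, with a median of -0.03. The type 17 and identity lists depended on Trac. In cells with a Trac UMI the type 17 list summed to 9589 (IEC+/+) and 2861 CPM (IEC-/-), and in cells without to 6578 and 5685 CPM. The identity list summed to 8226 and 5370 CPM with Trac, and to 7864 and 10441 CPM without. The cytokine and ligand list was lower in both sets, at 11086 and 7969 CPM with Trac and 10591 and 7132 CPM without. In the alpha-beta T cells with Il17a described below, the type 17 list summed to 6992 and 3873 CPM. There the cytokine and ligand list summed to 10259 and 6706 CPM, and the identity list to 5366 and 7542 CPM. Markers of other cells moved too: of 6 measured macrophage or monocyte genes 5 were lower and none higher, and the 11 genes of that list summed to 1006 and 508 CPM, against 4189 and 2255 CPM in empty droplets. Of 8 measured neutrophil genes 3 were lower, and that list summed to 4103 and 3170 CPM, against 8590 and 5856 CPM in empty droplets. Their part in the lower genes was not tested.

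Il17a stood at 2850 CPM (2722 to 2983) in the IEC+/+ library and 1821 CPM (1691 to 1959) in the IEC-/- library, a log2 ratio of -0.65 (-0.77 to -0.52). A few cells held much of it: the 3 richest cells carried 26.8% and 45.8% of the Il17a UMIs, and the richest of all held 285 and 147. The direction also depended on Trac. Among cells with a Trac UMI, Il17a stood at 5082 and 1114 CPM (log2 ratio -2.19, interval -2.43 to -1.95). Among the 138 cells without Trac it stood at 2042 and 2284 CPM (0.16, interval 0.01 to 0.31), so the lower summed Il17a of the IEC-/- library lay in the cells that also held alpha-chain RNA. Only 1 of the 3 richest cells of each library held Trac, so the ratio without Trac also rested in part on a few rich cells. In the 166 cells with Trdc the log2 ratio was -0.31. What kind of cell the Trac-positive ones were was not tested.

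Il22, which encodes a cytokine that acts on epithelial repair, had 147 UMIs in 6 cells of the IEC+/+ library and 0 UMIs in the IEC-/- library, a log2 ratio of -4.90 or lower with 3 counts in place of 0. All 147 UMIs lay in cells with Trac, and 142 of them in cells without Trdc. Il17f had 20 UMIs in 6 cells and 0 UMIs in the IEC-/- cells. With 72 cells, a count of 0 allows up to 4.99% of cells to hold a UMI (exact binomial interval).

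Areg, the epidermal growth factor family ligand amphiregulin, stood at 2784 CPM (2657 to 2915) and 1576 CPM (1455 to 1705), a log2 ratio of -0.82 (-0.95 to -0.69). It was found in 80 and 44 cells, and without Trac-positive cells the ratio was -0.66 (-0.81 to -0.51). Ltb, which encodes lymphotoxin beta, stood at 697 and 357 CPM, a ratio of -0.97 (-1.25 to -0.69). Batf, a transcription factor gene of interleukin 17 programmes, stood at 185 and 101 CPM, and Furin, a protease gene, at 449 and 288 CPM. Areg and Ltb were lower in the IEC-/- library with and without the Trac-positive cells, although the Ltb ratio was -0.17 after thinning, whereas the Batf interval without those cells held 0 (-1.25 to 0.14) and the Furin ratio shrank to -0.20 (-0.61 to 0.19).

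On the higher side was Tnfsf11, the gene of the ligand RANKL, with 151 CPM (123 to 184) and 273 CPM (224 to 330), a log2 ratio of 0.85 (0.45 to 1.26). Igf1r, the insulin-like growth factor 1 receptor gene, stood at 225 and 387 CPM, a ratio of 0.78 (0.44 to 1.12). Without the Trac-positive cells both differences were larger, 1.45 for Tnfsf11 and 1.23 for Igf1r.

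Receptors that feed the interleukin 17 programme were within 1.5-fold. Il1r1, the IL-1 receptor gene, stood at 634 and 564 CPM (log2 ratio -0.17, interval -0.41 to 0.07), and Il23r at 336 and 400 CPM (0.25, -0.06 to 0.55). Il7r, the receptor gene for the survival cytokine IL-7, stood at 412 and 595 CPM (0.53, 0.27 to 0.79). Among 21 measured cytokine receptor genes, 4 were higher and 1 was lower in the IEC-/- library, with a median of -0.05. The shares over all genes were 13.6% higher and 11.1% lower.  In the 138 cells without Trac, Il23r stood at 328 and 540 CPM (0.72, 0.37 to 1.07), Il7r at 414 and 736 CPM (0.83, 0.53 to 1.13) and Il1r1 at 567 and 757 CPM (0.42, 0.14 to 0.69).

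The transcription factor genes Rora and Maf were within 1.5-fold as well. Rora, a nuclear receptor gene, stood at 1902 and 2112 CPM (0.15, 0.02 to 0.28) and Maf at 247 and 336 CPM (0.45, 0.10 to 0.79, but -0.23 after thinning). Without the Trac-positive cells Maf was past 1.5-fold, at 233 and 477 CPM (1.03, 0.64 to 1.42), and the Rora ratio was 0.53 (0.38 to 0.68).

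**Figure D2:**
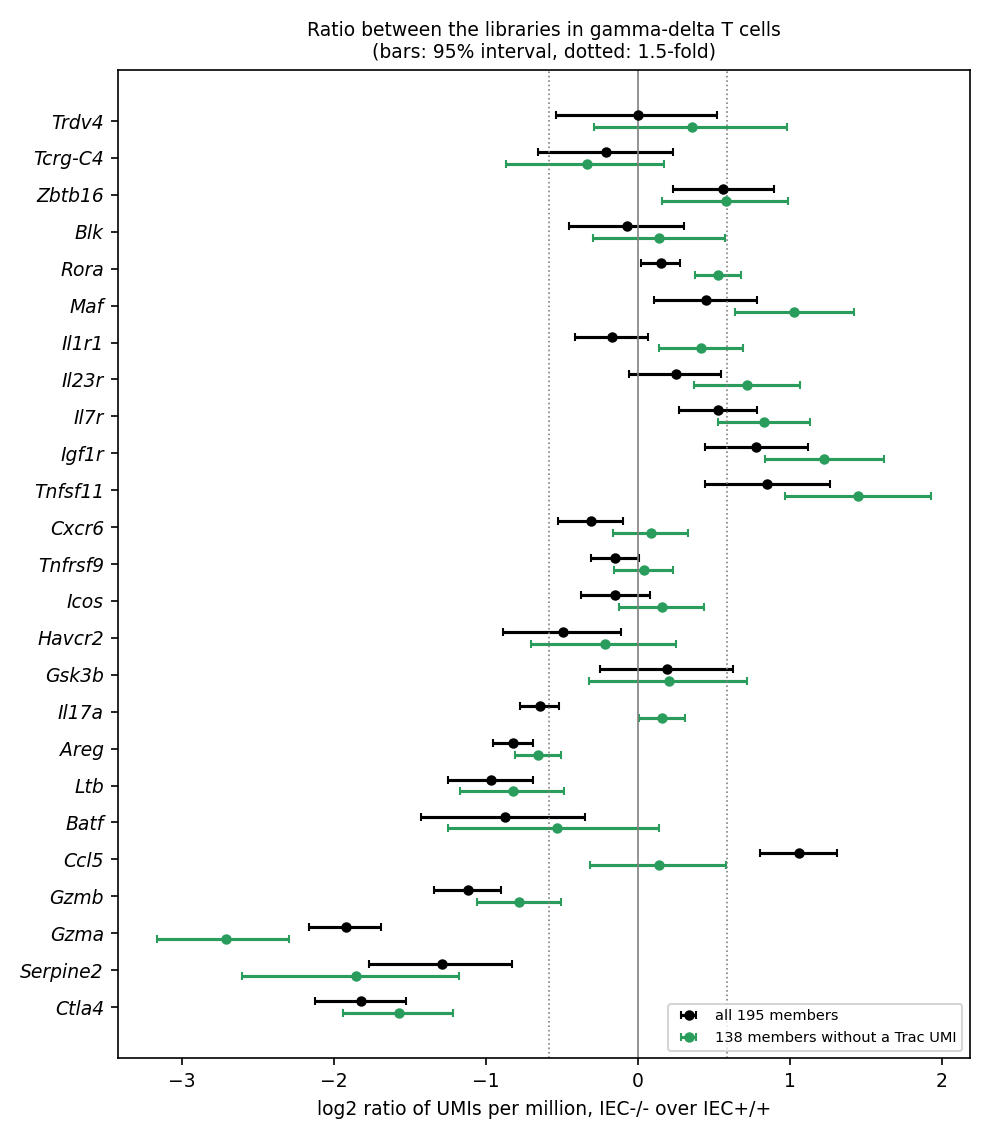
Log2 ratio of the IEC-/- over the IEC+/+ library in all 195 gamma-delta T cells (black) and in the 138 without a Trac UMI (green), with exact conditional 95% intervals; dotted lines mark 1.5-fold. Il17a moves from -0.65 to 0.16, while Areg, Ltb, Gzma, Gzmb, Serpine2 and Ctla4 lie below 0 in both sets and Tnfsf11, Igf1r and Il7r above 0 in both.

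Cytotoxic genes differed in both directions. Gzma, which encodes the protease granzyme A, stood at 1612 CPM (1516 to 1712) and 425 CPM (363 to 494), a log2 ratio of -1.92 (-2.17 to -1.69), but it was found in 19 and 8 cells, and its richest cells held 172 and 69 UMIs. Gzmb, for granzyme B, was found in 71 and 32 cells and stood at 1175 CPM (1093 to 1262) and 541 CPM (471 to 619), a ratio of -1.12 (-1.34 to -0.90). Ccl5, a chemokine gene of cytotoxic lymphocytes, went the other way at 358 and 746 CPM (1.06, 0.81 to 1.31). It was found in 36 and 22 cells (29.3% and 30.6%), and the 3 richest cells of each library held 57.3% of its UMIs. Without the Trac-positive cells Ccl5 was near equal, at 254 and 280 CPM (0.14, -0.31 to 0.58), while Gzma and Gzmb were still lower (-2.71 and -0.78). Over the whole list of type 1 and cytotoxic genes, 4 of 17 measured were higher and 6 lower, with a median of -0.03. Over all genes 13.6% were higher and 11.1% lower.

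Ctla4, an inhibitory receptor gene, differed over many cells. It was found in 97 of 123 cells (78.9%, interval 70.6 to 85.7) and in 37 of 72 cells (51.4%, 39.3 to 63.3), and in 56.9% and 27.8% after thinning, against 0.482% and 0.626% of thinned epithelial cells. Its level was 982 CPM (908 to 1062) and 278 CPM (229 to 335), a log2 ratio of -1.82 (-2.13 to -1.53), and no cell held more than 52 UMIs. Without the Trac-positive cells it stood at 931 and 314 CPM (-1.57, -1.94 to -1.21). Some other checkpoint and co-stimulation genes were within 1.5-fold: Icos, a co-stimulatory receptor gene, stood at 700 and 632 CPM, Tnfrsf9, for the receptor 4-1BB, at 1405 and 1267 CPM, and Havcr2, for the receptor TIM-3, at 288 and 205 CPM. Of 17 measured genes of this kind, Ctla4 included, 3 were higher and 4 lower in the IEC-/- library, against 13.6% and 11.1% over all genes.

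Further genes were lower in the IEC-/- library. Serpine2, a protease inhibitor gene, stood at 302 CPM (261 to 348) and 124 CPM (91.7 to 164), a log2 ratio of -1.29 (-1.77 to -0.83). Ctla2a stood at 134 and 30.4 CPM, Sv2c at 106 and 25.3 CPM and Lum at 108 and 27.8 CPM. Il15ra, which presents IL-15, stood at 58.6 and 7.59 CPM and Asb2 at 58.6 and 12.7 CPM. The last 2 genes rested on 3 and 5 UMIs in the IEC-/- library, and the log2 interval of Il15ra ran from -5.29 to -1.29.

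Several genes with high or low ratios rested on few cells. Xcl1, a lymphotactin gene, had 8 and 35 UMIs, of which 27 lay in 1 cell. Gsdmc2, an epithelial gasdermin gene, had 2 and 29 UMIs with 27 in 1 cell, and Rras2 had 18 and 66 UMIs with 38 in 1 cell. Mptx2, an intestinal pentraxin gene, had 38 and 0 UMIs with 36 in 1 cell. Palld was found in 12 and 22 cells at 41.6 and 177 CPM, against 78.3 and 70.7 CPM in empty droplets.

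Gsk3b itself, the gene deleted in the epithelium, stood at 168 CPM (138 to 203) and 192 CPM (151 to 241) in the gamma-delta T cells, a log2 ratio of 0.19 (-0.25 to 0.63). Empty droplets held 167 and 147 CPM, and with free RNA subtracted the ratio was 0.24.

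Other groups varied in how many members passed 1.5-fold. Over all 6569 measured genes 13.6% were higher and 11.1% lower, and the small counts that follow are a description beside those shares. Of 15 measured genes of intraepithelial lymphocytes, 4 were higher and 3 lower. Of 15 chemokine and lipid receptor genes 4 were higher and 2 lower, of 10 genes of the interferon-gamma response 2 were higher and 3 lower, and of 18 proliferation genes 5 were higher and 2 lower. Of 18 antioxidant and metallothionein genes 4 were higher and 1 was lower. Of 12 measured tissue residency genes, 1 was higher and 1 lower: the homing receptor gene Cxcr6 stood at 862 and 696 CPM, the retention gene Cd69 at 754 and 873 CPM and Rgs1, a regulator of chemokine signalling, at 3273 and 2558 CPM. Of 16 glycolysis genes, 2 were lower and none higher, with a median of -0.38, among them Aldoa at 740 and 486 CPM, whose levels in empty droplets were 540 and 493 CPM. Of 21 genes of the response to receptor triggering, 3 were higher and none lower, with a median of 0.28.

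Differences among the cells themselves were examined by Il17a. The 130 cells with an Il17a UMI (85 and 45) had median depths of 4657 and 4737 UMIs, and the 65 without (38 and 27) had 3823 and 4241, so the second set was shallower. Blk stood at 270 and 283 CPM with Il17a and 188 and 153 CPM without. Zbtb16 stood at 289 and 449 CPM with Il17a and 131 and 219 CPM without. Ramp1, a receptor subunit for the neuropeptide CGRP, stood at 227 and 383 CPM with Il17a and 100 and 102 CPM without. In both libraries, each of these genes was higher in the cells with Il17a.

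In cells without Il17a, the list of type 1 and cytotoxic genes summed to 5831 and 5393 CPM, against 4405 and 2188 CPM in cells with Il17a. The list of intraepithelial lymphocyte genes summed to 2065 and 2642 CPM against 1564 and 1421 CPM. Not all members went this way: Gzmb stood at 838 and 409 CPM without Il17a and 1286 and 612 CPM with it, Gzma at 1890 and 343 CPM without and 1521 and 469 CPM with it, and Itgae, an integrin gene, was found in 10 of 65 and 21 of 130 cells. The genes that follow were chosen after their values were seen. Ccl5 stood at 1151 and 2065 CPM in them, against 98.3 and 46.5 CPM in cells with Il17a. Cd7, a surface marker gene of intraepithelial lymphocytes, stood at 263 and 401 CPM against 6.14 and 3.87 CPM. Klrd1, a natural killer receptor gene, stood at 225 and 219 CPM against 43.0 and 42.6 CPM. Ctsw, a protease gene of cytotoxic lymphocytes, stood at 219 and 204 CPM against 45.0 and 27.1 CPM. Il12rb2, a receptor chain gene for IL-12, stood at 81.3 and 175 CPM and had no UMI in cells with Il17a, and Cd8a stood at 93.8 and 43.8 CPM and likewise had none. Trdc was present in both sets, at 3003 and 2707 CPM with Il17a and 2640 and 1408 CPM without. Cd7 was found in 13 of the 65 cells without Il17a and in 4 of the 130 cells with it. The division by Il17a was made on these cells, so these values describe it and carry no test.

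**Figure D3:**
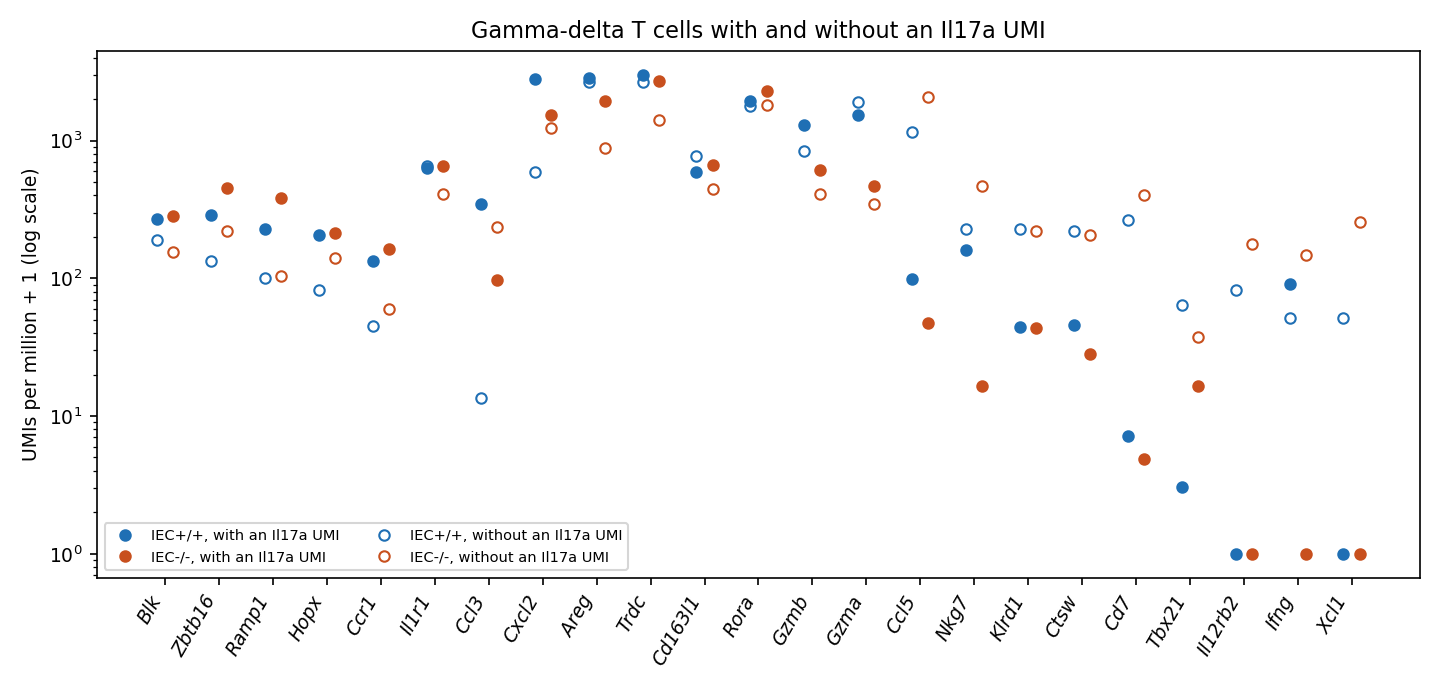
Level of identity, cytokine and cytotoxic genes in gamma-delta T cells with (filled) and without (open) an Il17a UMI in each library, in CPM plus 1 on a log scale. Blk, Zbtb16 and Ramp1 sit higher in the filled points of both libraries, and Ccl5, Klrd1, Ctsw, Cd7, Tbx21, Il12rb2 and Xcl1 in the open ones.

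The cells were also divided by Trdv4. Cd163l1 was found in 56 of the 61 cells with Trdv4 and in 68 of the 134 without. Il17a was found in 46 of 61 and 84 of 134, Blk in 45 of 61 and 66 of 134, and Ifng, the type 1 cytokine gene, in 1 of 61 and 19 of 134. The cells with Trdv4 were deeper, with medians of 5025 and 5294.5 UMIs against 3877 and 4222.5, and the part of depth in these shares was not tested. Levels, which do not rise with depth, gave 2487 and 2457 CPM of Il17a with Trdv4 and 3094 and 1432 CPM without. Ccl5 stood at 69.2 and 39.9 CPM with Trdv4 and 551 and 1179 CPM without, and the costimulatory gene Cd28 at 3.84 and 6.66 CPM with and 59.3 and 106 CPM without.

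A further 3 classes of T cells from the same libraries were then set against the gamma-delta T cells. The closest in programme were 113 alpha-beta T cells with Il17a (83 and 30 cells), which held 2 or more UMIs of Il17a and of Trac, Trbc1 and Trbc2, and none of the gamma-delta rule genes, Foxp3 or Cd8b1. The others were 98 CD8 T cells (37 and 61) and 745 remaining T cells (304 and 441) without Foxp3, Cd8b1, Il17a or gamma-delta UMIs. UMIs were summed per class and library and tested across all genes with edgeR's quasi-likelihood test, with the library as a block and Benjamini-Hochberg adjustment over all genes. The fit also held 309 Foxp3 T cells (205 and 104), with a Foxp3 UMI and none of Cd8b1 or the gamma-delta rule genes. All classes thus entered the estimate of spread. With the block, the p-values measure only how far differences between the fitted classes vary between these 2 libraries, which also differ in genotype. Genes that defined a class were not tested in it.

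Against the alpha-beta T cells with Il17a, 45 of 8931 genes differed (0.504%): 19 were higher (0.213%) and 26 lower (0.291%) in gamma-delta T cells at an adjusted p of 0.05 or less, and 757 had an unadjusted p under 0.05. None of the 26 tested identity genes of interleukin-17-producing gamma-delta T cells passed. Rora stood at 1902 and 2112 CPM in gamma-delta T cells and 1844 and 2080 CPM in the alpha-beta cells, and Il23r at 336 and 400 against 264 and 319 CPM. The fitted log2 differences were 0.02 for Rora, 0.36 for Il23r, 0.47 for Il1r1, -0.20 for Maf and 0.53 for Zbtb16, with edgeR adjusted p-values from 0.805 to 1.00. Zbtb16 differed in sign between the libraries, at 250 against 73.2 CPM in IEC+/+ and 369 against 466 CPM in IEC-/-. Blk, at 250 and 238 against 48.2 and 140 CPM, missed the threshold (1.66, edgeR adjusted p = 0.0775) and passed it without the Trac-positive cells (1.88, edgeR adjusted p = 0.0233).

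Of the genes higher in gamma-delta T cells, 2 of 4 tested chain segments and 2 of 24 tested type 1 and cytotoxic genes were among the 19. The chain segments are tied to the rule by sequence or transcript, and the alpha-beta class was set to hold none of the rule genes. Those 2 calls therefore describe the selection. Trdv4 had no UMI in the alpha-beta cells of either library, so its level was at least 25.3-fold and 6.61-fold higher. Tcrg-C4 had 127 and 67 UMIs against 3 and 0. Gzmb stood at 1175 and 541 CPM against 81.5 and 166 CPM, a log2 difference of 2.92 (edgeR adjusted p = 0.0149). Ccl5 rose by 2.47 (edgeR adjusted p = 0.00562), Cst7, a cystatin gene of cytotoxic cells, by 2.04 and Tnfrsf9 by 1.37. The alpha-beta class was chosen to hold Il17a, whereas 65 of the 195 gamma-delta T cells held none. Among gamma-delta T cells, Ccl5 was higher in those without Il17a and Gzmb in those with it. The part of this unlike selection in the calls was not tested. Clnk, an adaptor gene of immunoreceptor signalling, had 137 and 93 UMIs against 3 and 10 (edgeR adjusted p = 0.0395), and Batf3, a transcription factor gene, had 78 and 26 UMIs against 9 and 0. Fat3 had 40 and 37 UMIs against none. Itgae, the integrin gene CD103 of cells in the epithelium, had 28 and 18 UMIs against 3 and 0 (edgeR adjusted p = 0.0469). Stricter mitochondrial, depth, selection and Cd3 limits, thinning and leaving out Trac-positive cells each lost this call (edgeR adjusted p from 0.0549 to 0.173). Itgae was found in 14.6% and 18.1% of gamma-delta T cells, 42.0% and 26.0% of Foxp3 T cells and 22.0% and 11.1% of remaining T cells.

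Among the 26 lower genes were 3 of 6 tested genes of an alpha-beta T cell list and 4 of 20 tested genes of T cell receptor signalling, of which none was higher. Cd4, the helper T cell co-receptor gene, stood at 9.25 and 12.6 CPM against 110 and 57.4 CPM, a log2 difference of -3.13 (edgeR adjusted p = 0.0143). Cd2, an adhesion receptor gene, fell by 2.99, Cd28 by 2.38 and Cd5, a regulator of receptor signalling, by 2.15. Themis, a thymic selection gene of alpha-beta T cells, fell by 2.91, Ubash3a, a phosphatase gene of the receptor pathway, by 2.75 and Lck, the kinase gene that starts receptor signalling, by 1.49. Tnfsf8 and Tnfrsf4, for the ligand CD30L and the receptor OX40, fell by 2.92 and 2.60, and the factor gene Tox2 fell by 3.20. Without the library block 14 of the 45 calls were made, and those of Gzmb, Tnfrsf9, Clnk, Batf3, Cst7, Fat3, Itgae, Cd5, Tnfsf8, Tnfrsf4 and Lck were among those lost. After thinning to 1000 UMIs per cell the calls of Trdv4 and Tcrg-C4 were lost too (edgeR adjusted p = 0.175 and 0.0705). The IEC-/- sum of the alpha-beta class came from 30 cells and 156730 UMIs, and 9 B or plasma cell genes summed to 50316 CPM in it, against 642 CPM in its IEC+/+ sum and 714 and 617 CPM in gamma-delta T cells. Their part in these differences was not tested.

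**Figure D4:**
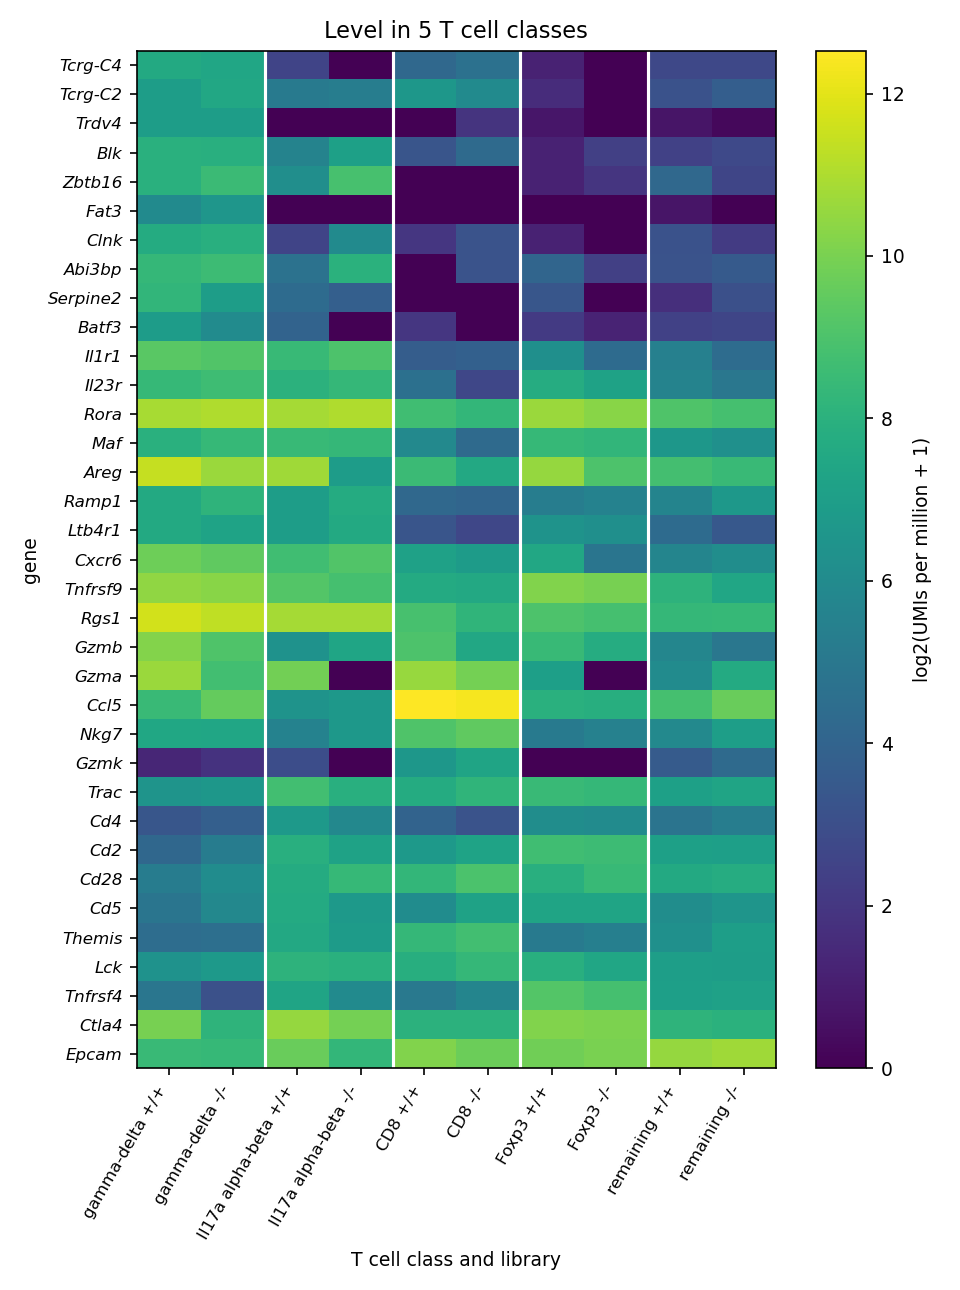
Level of selected genes, as log2 of CPM plus 1, in 5 T cell classes of each library. The gamma-delta columns lie close to those of the alpha-beta cells with Il17a in Rora, Il23r, Il1r1 and Maf, and differ from them in Tcrg-C4, Trdv4, Gzmb, Cd4, Cd2 and Themis.

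Against CD8 T cells, 703 of 8934 genes differed (7.87%), 454 higher (5.08%) and 249 lower (2.79%). With Cd3 UMIs also at 0.05% or more of each cell's total, a condition added after seeing the data, the split was 278 higher (3.61%) and 281 lower (3.65%). In the first setting, 21 of 26 tested identity genes of interleukin-17-producing gamma-delta T cells were higher and 1 lower, with a median log2 difference of 3.13 against -0.06 over all genes. Il1r1 stood at 634 and 564 CPM against 11.8 and 13.5 CPM, a log2 difference of 5.59 (edgeR adjusted p = 0.000167). Il23r rose by 4.74, Blk by 4.22, Maf by 2.97 and Rora by 2.53. Zbtb16 had no UMI in either CD8 sum and was at least 28.1-fold and 45.5-fold higher in gamma-delta T cells. Serpine2 and Ppp1r14c also had none there. Ltb4r1, a leukotriene receptor gene, rose by 4.64, Ramp1 by 3.88 and Areg by 3.05 (edgeR adjusted p = 0.00543, but 0.0567 without the library block). After thinning, Maf missed the threshold (edgeR adjusted p = 0.102). Among residency and activation genes, Cxcr6 rose by 2.62, Rgs1 by 2.99, Tnfrsf9 by 2.81, Havcr2 by 3.52 and Icos by 2.77.

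Of 24 tested type 1 and cytotoxic genes, 9 were lower than in CD8 T cells and 2 higher, and of 8 tested alpha-beta T cell genes 2 were lower and none higher. Ccl5 stood at 358 and 746 CPM against 5898 and 5258 CPM, a log2 difference of -3.38 (edgeR adjusted p = 5.84e-05). Gzmk, for granzyme K, fell by 5.87, Nkg7, a cytotoxic granule gene, by 1.74 and Ms4a4b by 3.69. Themis stood at 21.6 and 22.8 CPM against 326 and 425 CPM (edgeR adjusted p = 6.68e-05). Cd28 fell by 2.94, Cd2 by 2.30 and Lck by 1.53. Trac, at 89.5 and 98.7 against 207 and 290 CPM, fell by 1.37 (edgeR adjusted p = 0.0166). Gzma did not pass, with a difference of -0.54 and CPM of 1612 and 425 against 1521 and 969.

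Against the remaining T cells, 2236 of 8934 genes differed, 1126 higher (12.6%) and 1110 lower (12.4%). The remaining class carried much epithelial RNA: 12 epithelial genes summed to 10750 and 11989 CPM there, against 2638 and 2661 CPM in gamma-delta T cells and 13552 and 15883 CPM in empty droplets. When the added Cd3 condition was applied, 257 genes were higher (3.34%) and 267 lower (3.47%) of 7694. Of 2236 calls, 305 were shared between both settings, and Epcam went from a difference of -2.11 to -0.02. The genes that follow passed in both, but Trdv4 is tied to the rule, so its value only describes the selection. Trdv4 rose by 8.09 and by 7.68 with the added condition, Blk by 5.72 and 4.89 and Il1r1 by 4.39 and 3.14. Abi3bp rose by 5.37 and 5.11, Serpine2 by 5.34 and 4.67, Clnk by 5.43 and 4.15 and Gzmb by 4.45 and 2.72. Cd28 fell by 1.92 and by 3.60, Cd2 by 2.30 and 3.96, and Tnfrsf4 by 2.69 and 4.40. Zbtb16 rose by 4.84 and 3.17. The remaining class was also chosen to hold no Il17a, and Blk and Zbtb16 were higher in the gamma-delta T cells with Il17a. The part of that choice in their rise was not tested.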

How the data were processed

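The values were UMI counts per gene and barcode for 2 single-cell libraries, deposited by the authors as unfiltered matrices. Per the file headers they came from Cell Ranger 4; mm10, Cell Ranger and Seurat are named per the submitters' processing notes, and the annotation release was not given in the sources used here. No cell calls or cell types were used, so the barcode limits, the selection and the T cell classes were applied here, and members and gene lists were chosen with earlier results of these data known. No doublets were removed in the main selection: Scrublet's own threshold marked 213 and 396 barcodes, and leaving out the 905 and 1052 highest-ranked ones (0.8% per 1000 barcodes) was an alternative that took 7 cells from each library. Coordinates are from GENCODE vM21 by Ensembl ID. Sums, intervals and figures were computed in Python 3.11.15 (pandas 2.3.3, numpy 2.4.6, matplotlib 3.10.9, with scipy 1.17.1 for intervals), doublet scores with scanpy 1.11.5, and contrasts in R 4.3.3. Class contrasts used edgeR 4.0.16 (filterByExpr, TMM, class and library terms, 4 residual degrees of freedom), with DESeq2 1.42.0 as an alternative.

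Ratios between libraries were computed for genes with 20 or more UMIs, and a count of 0 was replaced by 3 counts per library for a bound. On simulated data for the contrast with remaining T cells (8536 genes), 22% of 2-fold and 94% of 4-fold changes were recovered and 0.0343% of unchanged genes were called. The simulation used the same spread for all genes and the same mean profile for all classes. Only genes with enough expected counts were changed, so these rates need not hold for the real sums. Genes were named by a rule: the given markers, the gamma and delta chain segments with a UMI and Gsk3b; of each list, up to 5 members with the most UMIs past 1.5-fold or an adjusted p of 0.05; and, with 50 CPM or more and not below empty droplets, the 12 most extreme genes per direction between libraries and in each contrast. It named 187 genes, a few of which are not reported here. The genes printed are a subset of these, picked after their values and their behaviour under the alternatives were seen, with some others that serve a comparison. Counts over all genes of the rule are therefore given with the limits below. Alternatives covered depth, mitochondrial, doublet and selection limits, scaling, thinning, free RNA, filters, tool and the library block.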

Additional observations from a re-analysis of the deposited data

Results flagged for a closer look

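In 21 results gamma-delta T cells and another T cell class differed past 1.5-fold in opposite directions in the IEC+/+ and IEC-/- libraries. Smaller differences were not counted. All 21 were on genes of the naming rule, of which 176, 173 and 177 were compared with remaining, Il17a and CD8 T cells. The share over all genes is not given. Asb2, Cpeb3, Palld, Ica1, Ppm1l, Rras2, Taf4b and Ppargc1a had been named for an extreme ratio between the libraries, which enters these differences. Values are log2 differences of CPM in IEC+/+ and then in IEC-/-, none of these differences between libraries was tested, and each rests on 1 library per side. Against remaining T cells, 4 genes did so: Asb2 (0.97 and -1.20), Cpeb3 (-1.41 and 2.58), Jchain (0.68 and -3.50) and Palld (-1.53 and 1.15). Against alpha-beta T cells with Il17a there were 11. Of these, Cd96 (0.67 and -1.45) and Gbp4 (1.31 and -1.47) were higher in gamma-delta T cells of the IEC+/+ library. The other 9 were higher in those of the IEC-/- library: Ica1 (-1.79 and 1.78), Isg15 (-1.24 and 2.37), Krt18 (-0.70 and 1.19), Lyz2 (-1.19 and 0.80), Ms4a4b (-1.04 and 0.91), Mt3 (-0.64 and 4.39), Ppm1l (-0.75 and 1.52), Rras2 (-0.85 and 2.12) and Taf4b (-3.11 and 0.80). Against CD8 T cells there were 6: Ifit1 (-0.65 and 0.73), Jchain (1.01 and -0.68), Mt3 (-0.68 and 1.46), Ppargc1a (-1.86 and 2.15), Ppm1l (-1.86 and 1.30) and Ptn (0.95 and -2.76). In the IEC-/- gamma-delta T cells, 1 cell held 37 of the 53 Mt3 UMIs, and 1 held 25 of the 48 Ifit1 UMIs.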

How the results depend on the processing

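The count of genes past 1.5-fold between libraries (1621) was 534 after thinning to 1000 UMIs and 608 among genes with 50 UMIs or more, where fewer genes were tested. Leaving out every cell with an alpha-beta chain UMI kept 10 cells (9 and 1), so only counts are given: 184 genes between libraries and 210, 3 and 86 against remaining, Il17a and CD8 T cells. The contrasts' 2236, 45 and 703 calls changed to 411 (remaining) and 344 (CD8) after thinning, to 524 (remaining) with the added Cd3 condition, and to 233 (Il17a) and 1055 (CD8) with no low-count filter. DESeq2 called 1532, 61 and 657. No paired analysis was possible between the libraries because each genotype had 1. Without the library block the contrasts gave 1819, 14 and 537 calls. Of the printed ratios past 1.5-fold, that of Il17a reversed, to 0.16 without Trac-positive cells. Some within 1.5-fold changed sign: Maf to -0.23 and Gsk3b to -0.16 after thinning, and, without Trac-positive cells, Il1r1 to 0.42, Icos to 0.16, Blk to 0.14, Cxcr6 to 0.08, Rgs1 to 0.07 and Tnfrsf9 to 0.04. Trdv4 and Trgv2, near 0, did so under several. Of all 160 genes of the naming rule measured between libraries, 19 reversed under some alternative. In the contrasts, 20 of 176, 0 of 173 and 5 of 177 reversed, and 73 of 128, 22 of 31 and 33 of 87 calls were lost under some alternative, 20 of the 22 without the block. The cause was not tested. Genes under 20 UMIs over both libraries were not compared at this depth.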
